A study of Mus musculus with 8 samples.

Results

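The genes described here are 10 transcripts that mark 2 kinds of resident immune cell in mouse skin. Adgre1, Cd68, Csf1r, Mrc1, Cd163 and Lyz2 stand for macrophages, and Cma1, Mcpt4, Cpa3 and Tpsb2 for mast cells. They were chosen by name, with earlier results of these data known. Their probes were found through the RefSeq accession of each probe, which matched 9 of the 10 genes (5 macrophage genes with 8 probes and 4 mast cell genes with 5 probes) among 20128 genes with a symbol on the array. Cd68 matched no probe in this way and has no value here. All 9 genes were well above background on all 8 arrays, by the mark that the scanner software gives each spot.

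The study edited Cchcr1, which encodes a coiled-coil protein, in mice with CRISPR/Cas9, and measured RNA of skin pieces on single-colour arrays. The 8 samples, all from the strain C57BL/6N, fall into 3 groups: 2 samples of Cchcr1 mutant skin with hair loss, 4 of Cchcr1 mutant skin with normal hair, and 2 of wild type skin with normal hair. Titles of the mutant samples carry Mutant097 or Mutant113, each with 1 hair loss sample and 2 normal ones, and the wild type pair carries Wild001. The labels give no age or sex, do not say what a title number marks, and do not say that the samples are separate animals, so p-values measure only the spread between these samples. The wild type has a single title number, so that its number and its genotype cannot be told apart.

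Macrophages are phagocytes of the dermis that depend on signalling through Csf1r, and in skin many of them sit near vessels and carry the scavenger receptors Mrc1 and Cd163. Mast cells lie in the dermis around vessels and hair follicles. They store proteases in granules bound to heparin: chymases (Cma1 and Mcpt4), a tryptase (Tpsb2) and carboxypeptidase A3 (Cpa3), which are released on activation. In whole skin, fewer cells of a type and less RNA per cell cannot be told apart. Levels are on a log2 scale on which 0 is the 75th percentile of all probes of the array, and a difference of 1 is a doubling.

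The start regions of the mast cell genes are shown because these genes correlated over the 8 samples, as described further on. Of the 10 genes, 7 were searched in a RefSeq promoter table (GRCm38.p6). Adgre1 and Tpsb2 had no entry, and Csf1r was left out beforehand by a rule on its chromosome. The 250 bases before the start were searched on both strands for 4 motifs. These were GATAA (the core bound by GATA factors, of which Gata2 acts in mast cells), GAGGAA (bound by PU.1, the product of Spi1, in myeloid cells) and the E-boxes CACGTG and CATGTG (bound by Mitf and related factors). Capitals mark the motif, and TTATC is GATAA read on the other strand. The regions lie at chr14:55944676-55944925 (Cma1), chr14:56062311-56062560 (Mcpt4) and chr3:20242182-20242431 (Cpa3), all on the minus strand, and are written 5′ to 3′ toward the start of the gene.
Cma1: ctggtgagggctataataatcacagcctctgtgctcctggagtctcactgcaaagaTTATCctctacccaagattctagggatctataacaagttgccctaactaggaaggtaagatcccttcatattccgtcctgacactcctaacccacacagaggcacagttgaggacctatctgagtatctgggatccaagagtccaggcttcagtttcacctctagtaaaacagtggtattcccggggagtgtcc
Mcpt4: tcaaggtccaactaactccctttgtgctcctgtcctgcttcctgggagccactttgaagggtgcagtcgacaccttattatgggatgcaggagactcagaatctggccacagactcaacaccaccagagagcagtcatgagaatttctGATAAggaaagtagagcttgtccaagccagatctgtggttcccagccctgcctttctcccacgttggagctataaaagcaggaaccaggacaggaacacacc
Cpa3: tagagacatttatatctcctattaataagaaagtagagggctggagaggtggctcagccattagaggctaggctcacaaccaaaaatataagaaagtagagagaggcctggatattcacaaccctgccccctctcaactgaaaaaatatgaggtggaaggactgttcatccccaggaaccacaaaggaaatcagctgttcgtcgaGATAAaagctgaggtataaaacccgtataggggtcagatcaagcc
GATAA stood in all 3 of these windows, at positions -194 to -190 in Cma1, -102 to -98 in Mcpt4 and -45 to -41 in Cpa3, and none of the other motifs did. Among all 32851 promoter windows of the same length, 22.6% held GATAA. Of the 4 macrophage genes searched, Cd163 held GATAA once, Mrc1 held GAGGAA at 3 places and CATGTG at 2, 1 of which ends directly before a GAGGAA match, Cd68 held GAGGAA once, and Lyz2 held none of the 4 motifs. GAGGAA stood in 23.3% of all windows, CATGTG in 12.3% and CACGTG in 6.02%. These matches describe letters in a window and not binding.

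The wild type samples had the highest macrophage levels of the series, and the mutant samples lay below them with and without hair loss. Csf1r, the receptor for the growth factors Csf1 and Il34, was at 6.76 and 6.47 in wild type skin. In mutant normal skin the 2 samples of Mutant097 read 5.66 and 6.18, and those of Mutant113 read 5.19 and 5.35. In hair loss skin it was at 5.47 in Mutant097 and 5.62 in Mutant113. Every mutant sample lay below both wild type samples, and the hair loss samples lay among the normal mutant ones. The difference of mutant normal skin from wild type was -1.02 (SE 0.29, 2.03-fold lower, limma adjusted p 0.161), and that of hair loss skin was -1.07 (SE 0.33, adjusted p 0.113).

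Csf1r is measured by 3 probes, which agreed in sign but not in call. The second probe read 1.72 and 1.68 in wild type skin. The 4 samples of mutant normal skin read 0.02, 0.53, 0.03 and 0.21, and the hair loss pair 0.03 and 0.50. The 2 wild type samples stood more than 1 log2 unit above every mutant sample. This probe passed the threshold of adjusted p under 0.05 in mutant normal skin, at -1.50 (SE 0.22, 2.83-fold lower, limma adjusted p 0.0327), and in hair loss skin, at -1.43 (SE 0.25, 2.70-fold lower, adjusted p 0.0451). The third probe differed by -0.80 in mutant normal skin (adjusted p 0.106) and by -0.81 in hair loss skin (adjusted p 0.0788). The call of the second probe in mutant normal skin was lost without either wild type sample (adjusted p 0.203 and 0.101), without either normal sample of Mutant113 (0.0879 and 0.0915), without the first of Mutant097 (0.0692) and without the filter on dim probes (0.0952). Over all alternatives its adjusted p ran from 0.0266 to 0.619 and its difference from -1.61 to -1.15. In hair loss skin the adjusted p of this probe ran from 0.0334 to 0.255, and the call was lost without either wild type sample (0.194 and 0.0769), without the hair loss sample of Mutant097 (0.201), without the first normal sample of Mutant097 (0.0605) and without the second normal sample of Mutant113 (0.0708). It was also lost with the slide row as a block (0.0637), with only the samples of both groups (0.0843), without the filter on dim probes (0.124) and with 1 mean per group and number (0.255).

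Lyz2, which encodes the lysozyme of macrophages and neutrophils, was likewise highest in the wild type. It was at 2.51 and 3.19 in wild type skin. Normal skin of Mutant097 read 1.55 and 1.98, and normal skin of Mutant113 read 1.47 and 1.71. Hair loss skin was at 1.20 in Mutant097 and at 2.43 in Mutant113, so that one hair loss sample came close to the wild type and the other was the lowest of all. The difference was -1.18 for mutant normal skin (SE 0.36, 2.26-fold lower, adjusted p 0.182) and -1.03 for hair loss skin (SE 0.42, adjusted p 0.180).

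Cd163, the scavenger receptor for haptoglobin and haemoglobin complexes, was the only one of the 9 genes for which both hair loss samples lay below every normal mutant sample. It was at -0.88 and -0.59 in wild type skin. Normal skin of Mutant097 read -1.42 and -1.46, and normal skin of Mutant113 read -2.65 and -1.93. The hair loss samples read -2.68 and -2.70. The 3 groups did not overlap (12.4% of all probes tested had no overlap between hair loss and mutant normal skin), although the lowest normal mutant sample lay just above the hair loss pair. The differences were -1.13 for mutant normal skin against wild type (SE 0.34, adjusted p 0.180), -1.96 for hair loss against wild type (SE 0.40, 3.88-fold lower, adjusted p 0.0596) and -0.83 for hair loss against mutant normal skin (SE 0.34, adjusted p 0.944). With normexp background correction of the raw signal, the hair loss difference from wild type came to -0.90, and its adjusted p over 17 alternatives ran from 0.0138 to 0.249, with 4 of them past the threshold.

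Adgre1, an adhesion receptor on mouse macrophages, and Mrc1, the mannose receptor CD206, lay closer to the wild type. Adgre1 was at 2.93 and 3.06 in wild type skin, at 2.15 and 2.58 in normal skin of Mutant097, at 2.21 and 2.15 in that of Mutant113, and at 2.18 and 2.84 in hair loss skin of Mutant097 and Mutant113. Its difference was -0.72 in mutant normal skin (SE 0.23, adjusted p 0.196) and -0.48 in hair loss skin (SE 0.27, adjusted p 0.304). Its second probe gave -0.84 in mutant normal skin (adjusted p 0.209). Mrc1 was at 3.95 and 4.23 in wild type skin, at 3.51 and 3.77 in normal skin of Mutant097, at 3.03 and 3.21 in that of Mutant113, and at 3.38 and 3.50 in hair loss skin. Its difference was -0.71 in mutant normal skin (SE 0.24, adjusted p 0.205) and -0.65 in hair loss skin (SE 0.27, adjusted p 0.193). For both genes, too, every mutant sample lay below the wild type pair.

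**Figure D1:**
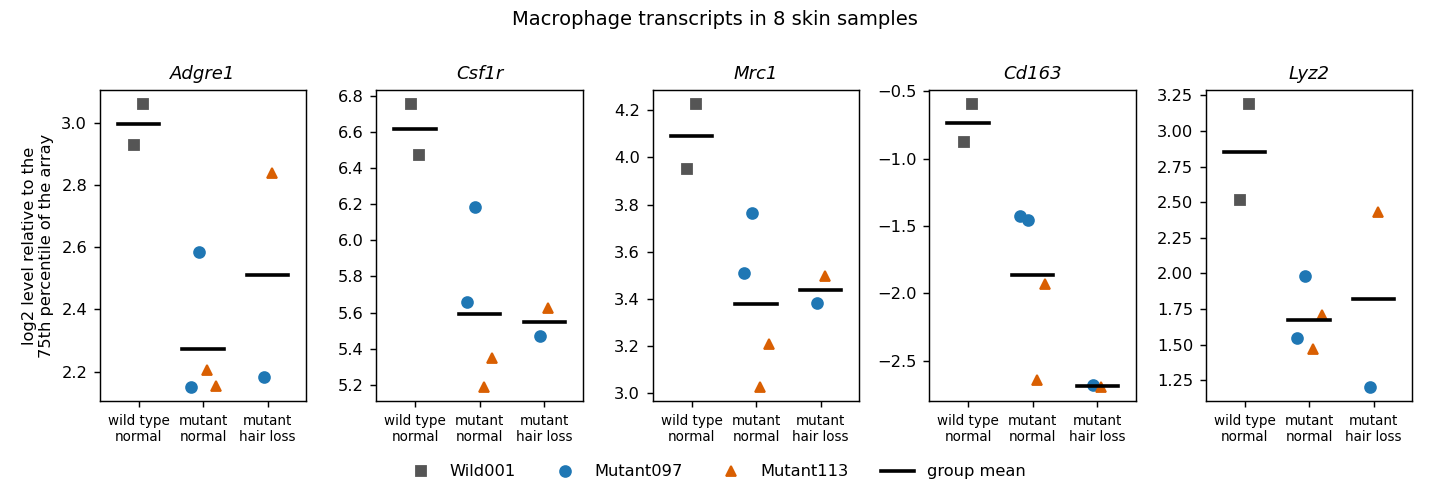
Level of 5 macrophage genes (brightest probe, log2 relative to the 75th percentile of the array) in each of the 8 samples, by group on the horizontal axis, with symbols for the title number and a line for the group mean; each panel has its own axis range. The 2 wild type samples lie above all 6 mutant samples in every panel.

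Counted over the brightest probe of each gene, 0 of the 5 macrophage genes and 0 of the 4 mast cell genes passed the threshold in mutant normal skin against wild type, where 0.694% of the 30417 probes tested did (0.118% lower and 0.575% higher). In hair loss skin against wild type, 0 of the 9 passed, where 1.42% of probes did (0.427% lower and 0.993% higher). All 5 macrophage genes were lower without overlap between groups in both comparisons, with medians of -1.02 and -1.03. Groups of this size often do not overlap: 14.8% of all probes tested lay lower without overlap in mutant normal skin and 28.5% in hair loss skin. The median of all probes tested was -0.04 and -0.06. Both comparisons share the wild type samples. The arrays of hair loss skin and of normal Mutant097 skin were in row 1 of the slide, and the others in row 2. With the row as a block, mutant normal skin differed from wild type by -1.35 for Csf1r (adjusted p 0.0402; range over all alternatives 0.0402 to 0.727) and by -1.55 for Cd163 (adjusted p 0.0370; range 0.0370 to 0.737), which are then called. That fit sets the wild type against normal skin of Mutant113 alone, and they also differed in transcripts of the sex chromosomes, given further on. Hair loss skin, which shares no row with the wild type and is linked to it through the normal mutant samples, then differed from it by -1.72 for Csf1r (adjusted p 0.0423; range 0.0423 to 0.365) and by -2.80 for Cd163 (adjusted p 0.0138; range as above).

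Taken by title number, the normal skin of Mutant113 lay below wild type by a median of 1.26 on the log2 scale (differences of -1.55 to -0.81 over the 5 macrophage genes) and that of Mutant097 had a median difference of -0.70 (-1.09 to -0.45). The difference between the 2 numbers in normal skin was -0.65 for Csf1r (SE 0.24, adjusted p 0.293), -0.52 for Mrc1 (SE 0.20, adjusted p 0.302) and -0.85 for Cd163 (SE 0.28, adjusted p 0.259), and -0.19 and -0.18 for Adgre1 and Lyz2. None of the 5 passed the threshold, which 0.266% of probes did. The title numbers also differed in transcripts of the sex chromosomes, given further on, whose part was not tested.

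**Figure D2:**
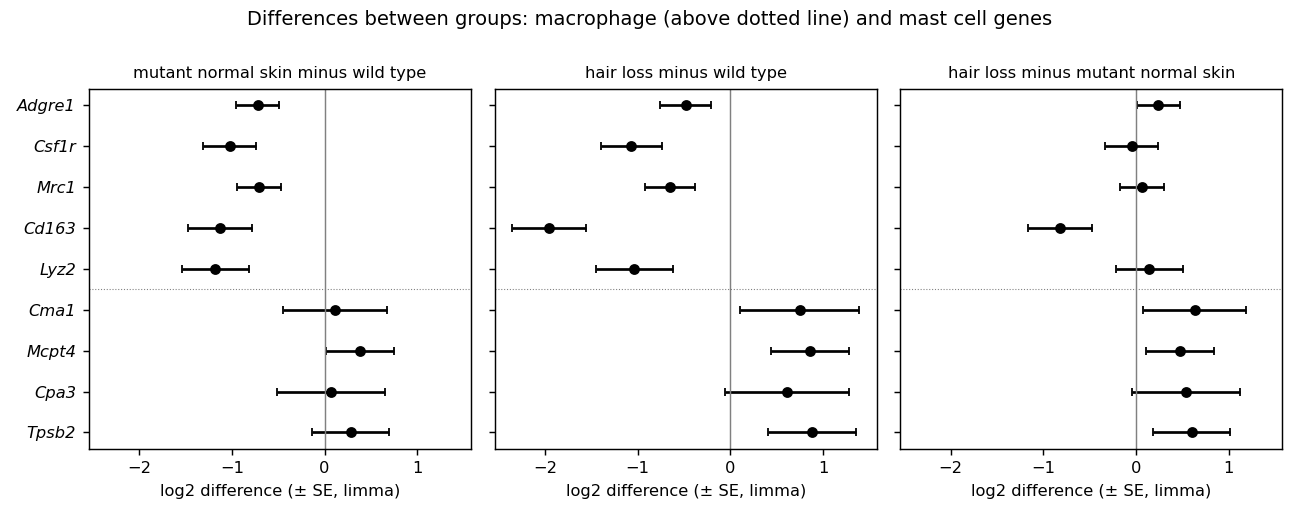
Log2 differences between groups with their standard errors (limma, 3-group model) for the 9 genes, by comparison. The macrophage genes lie left of 0 in both comparisons with wild type, from -1.96 to -0.48, and the mast cell genes lie right of 0 in all 3 comparisons, with standard errors of up to 0.67.

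The mast cell proteases had another pattern. Their levels went with the title number and were highest in the hair loss sample of Mutant113. Cpa3 was at 2.19 and 2.41 in wild type skin. It was at 1.96 and 1.95 in normal skin of Mutant097 and 1.77 in its hair loss skin. In Mutant113 it was at 2.85 and 2.71 in normal skin and 4.04 in hair loss skin. The 3 samples of Mutant113 were thus the 3 highest of the series, and the 3 of Mutant097 the 3 lowest. Such separation is frequent here: in normal skin alone, 56% of all probes tested had no overlap between the 2 numbers, and 24.1% lay higher in Mutant113.

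Tpsb2, the tryptase, was at 1.04 and 0.99 in wild type skin. It was at 0.87 and 0.84 in normal skin of Mutant097 and 1.27 in its hair loss skin, and at 1.76 and 1.71 in normal skin of Mutant113 and 2.52 in its hair loss skin. Its second probe gave the same order of title numbers, with -0.86 and -1.02 in normal skin of Mutant097, 0.48 and 0.47 in that of Mutant113, and 1.52 in hair loss skin of Mutant113. Tryptase genes are close in sequence, and whether the probes also read Tpsab1 was not tested.

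Cma1, the alpha-type chymase, was at 0.34 and 0.84 in wild type skin. It was at 0.34 and 0.20 in normal skin of Mutant097 and 0.31 in its hair loss skin, against 1.27 and 0.995 in normal skin of Mutant113 and 2.35 in its hair loss skin. Mcpt4, the main chymase of connective tissue mast cells in mice, was at 4.76 and 4.85 in wild type skin, at 4.95 and 5.05 in normal skin of Mutant097 and 4.96 in its hair loss skin. In Mutant113 it was at 5.41 and 5.35 in normal skin and 6.37 in hair loss skin. Mcpt4 was the only mast cell gene whose mutant normal samples all lay above both wild type samples, as for 13.6% of all probes tested.

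**Figure D3:**
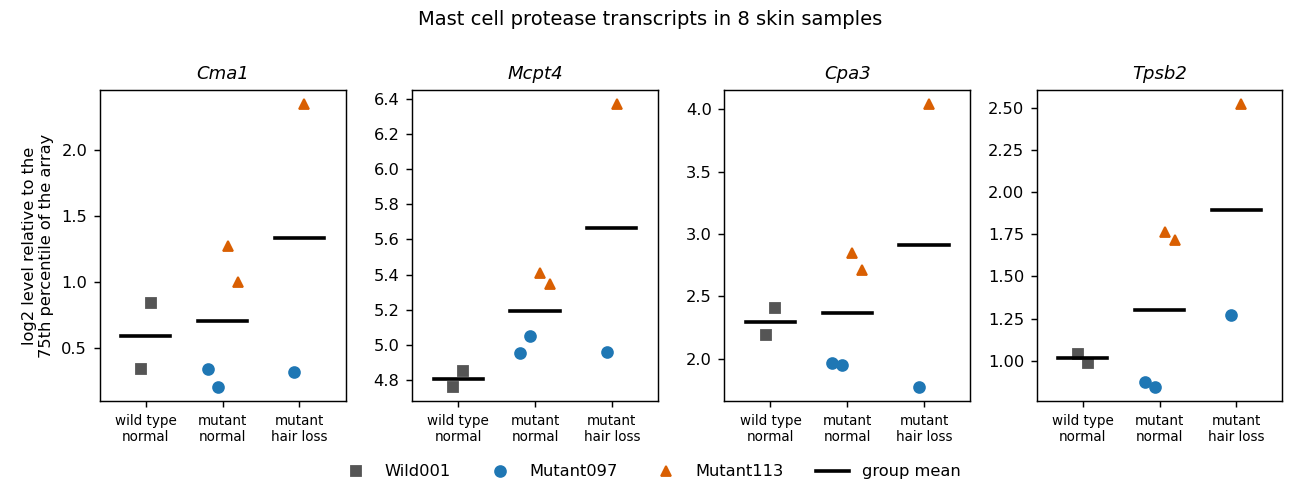
Level of the 4 mast cell protease genes (brightest probe, log2 relative to the 75th percentile of the array) in each of the 8 samples, by group, with symbols for the title number and a line for the group mean; each panel has its own axis range. In every panel the hair loss sample of Mutant113 is the highest point and both normal samples of Mutant113 lie above those of Mutant097.

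Within Mutant113, hair loss skin exceeded the mean of the 2 normal samples for all 4 proteases, by 1.26 for Cpa3 (2.40-fold), 1.21 for Cma1 (2.32-fold), 0.99 for Mcpt4 (1.99-fold) and 0.79 for Tpsb2 (1.72-fold). Within Mutant097 the same difference was -0.18, 0.05, -0.04 and 0.41. Each of these rests on 1 hair loss sample. The difference between the 2 numbers in this lesion effect was 1.45 for Cpa3 (SE 0.30, adjusted p 0.243), 1.17 for Cma1 (SE 0.41, adjusted p 0.480), 1.04 for Mcpt4 (SE 0.28, adjusted p 0.371) and 0.38 for Tpsb2 (SE 0.27, adjusted p 0.733). In limma 0 of the 9 genes passed, as did 0% of all 30417 probes (9.50% at an unadjusted p under 0.05).

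Across both numbers, hair loss minus mutant normal skin was 0.63 for Cma1 (SE 0.56), 0.47 for Mcpt4 (SE 0.36), 0.54 for Cpa3 (SE 0.58) and 0.60 for Tpsb2 (SE 0.41), all with adjusted p 0.999. Without the hair loss sample of Mutant113 the 4 differences were -0.39, -0.23, -0.59 and -0.03. In this comparison limma called 0% of probes (1582 probes, 5.20%, had an unadjusted p under 0.05), and 0 of the 9 genes. Against wild type, the hair loss differences of the 4 proteases were 0.61 to 0.88 with adjusted p of 0.250 to 0.595, and those of mutant normal skin 0.07 to 0.38 with adjusted p of 0.620 to 0.963.

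In normal skin alone, Mutant113 exceeded Mutant097 by 0.88 for Tpsb2 (SE 0.16, 1.84-fold, adjusted p 0.107), 0.87 for Cma1 (SE 0.24, adjusted p 0.210), 0.82 for Cpa3 (SE 0.17, adjusted p 0.145) and 0.38 for Mcpt4 (SE 0.16, adjusted p 0.339). Both samples of Mutant113 lay above both of Mutant097 for all 4 genes, as for 24.1% of all probes tested (56% had no overlap in either direction). None of the 4 passed, while 15.8% of probes had an unadjusted p under 0.05. Transcripts of the sex chromosomes went with the title number too: Xist was well above background in the 3 samples of Mutant113 and in 0 of the other 5 samples, and Ddx3y and Eif2s3y, both on the Y chromosome, in those 5 and not in Mutant113. Their part in the mast cell and macrophage differences was not tested, since sex by these transcripts and title number cannot be told apart among the mutants.

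**Figure D4:**
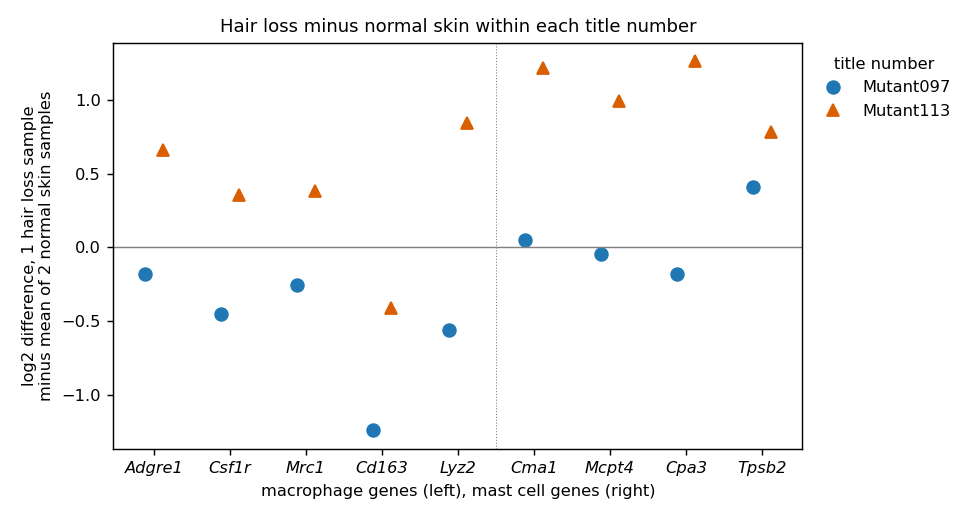
Log2 difference of 1 hair loss sample from the mean of the 2 normal skin samples of the same title number, for the 5 macrophage genes (left) and the 4 mast cell genes (right). The mast cell genes lie at 0.79 to 1.26 in Mutant113 and at -0.18 to 0.41 in Mutant097, and all 9 genes are higher in Mutant113 than in Mutant097.

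For the macrophage genes, too, the lesion effect lay higher in Mutant113, and 0 of the 5 passed the test of that difference. In Mutant097 all 5 were lower in hair loss skin than in normal skin, with a median of -0.45 and -1.24 for Cd163 at the far end. In Mutant113, 4 of the 5 were higher, with a median of 0.38 and 0.85 for Lyz2 at the far end, and Cd163 was at -0.41. The third Csf1r probe had the opposite signs to the brightest one, at 0.064 in Mutant097 and -0.100 in Mutant113. The difference between the numbers was 1.41 for Lyz2 (SE 0.51, adjusted p 0.502) and 0.64 to 0.84 for the other 4 (adjusted p 0.557 to 0.666).

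Over the 8 samples, which share 1 slide and 1 scan, the 4 mast cell genes correlated with each other at Pearson's r of 0.918 to 0.986 (6 pairs), and the 5 macrophage genes at 0.547 to 0.948 (10 pairs). Between the 2 classes r ran from -0.719 to 0.290 (20 pairs). After each gene was centred on its mean over the 8 samples, the 4 mast cell genes averaged 1.35 in hair loss skin of Mutant113, 0.35 and 0.22 in its normal skin, and -0.46 to -0.20 in the other 5 samples. Among those 5 the order differed between genes: in hair loss skin of Mutant097, Cpa3 was at its lowest (1.77) and Tpsb2 at its highest (1.27). The 5 macrophage genes averaged 0.63 and 0.84 in the wild type and -0.58 to 0.18 in the mutants.

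**Figure D5:**
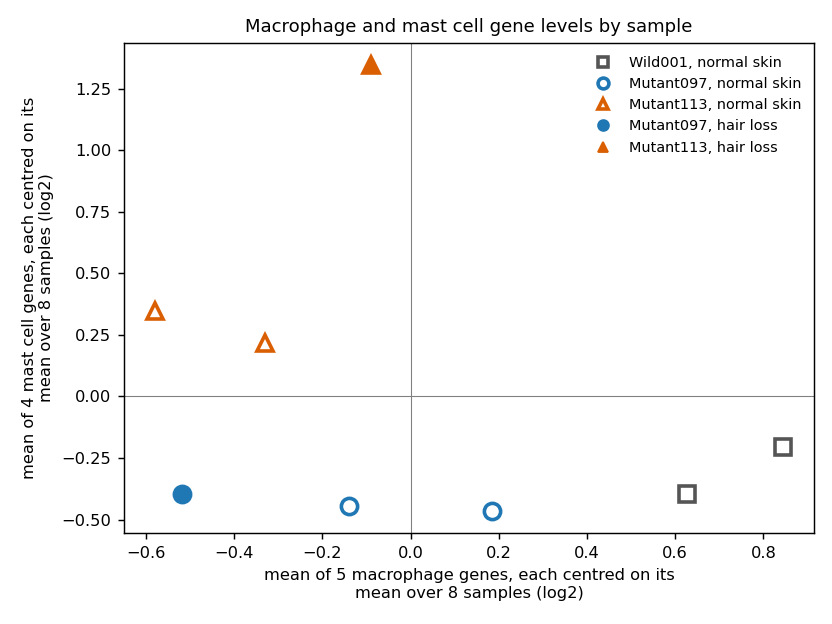
Each point is 1 sample: the mean of the 5 macrophage genes (horizontal axis) and of the 4 mast cell genes (vertical axis), each gene centred on its mean over the 8 samples (log2), with filled symbols for hair loss skin. The wild type samples stand at the right, at 0.63 and 0.84 on the macrophage axis, and the hair loss sample of Mutant113 stands at the top, at 1.35 on the mast cell axis.

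Other genes of the macrophage program were read from lists of gene names, chosen with earlier results of these data known. Of 24 receptors and regulators tested, 20 were lower in mutant normal skin than in wild type and 0 passed, with a median of -0.60. Tyrobp, the adaptor of activating myeloid receptors, was at 4.59 and 4.57 in wild type skin and at 3.62, 3.94, 3.17 and 3.39 in mutant normal skin (difference -1.05, adjusted p 0.189). Itgam, an integrin chain of myeloid cells, differed by -0.68 (adjusted p 0.334), and Axl, a receptor for Gas6 on phagocytes, by -0.34 (adjusted p 0.479).

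Genes typical of perivascular and other dermal macrophages lay lower in both comparisons with wild type. Of 20 tested, 19 were lower in mutant normal skin (median -0.85, 0 passed) and 19 in hair loss skin (median -0.99, 1 passed). Among all probes tested, 0.118% passed lower in mutant normal skin and 0.427% in hair loss skin. The gene that passed was Folr2, the folate receptor beta of resident macrophages, which fell by 1.66 in hair loss skin (SE 0.25, 3.16-fold lower, limma adjusted p 0.0287). It was at 3.73 and 3.87 in wild type skin and at 1.94 and 2.35 in hair loss skin. Mutant normal skin, at 2.25 to 2.81, overlapped the hair loss pair and lay below the wild type. Folr2 was not called in hair loss skin with only the samples of both groups (limma adjusted p 0.0604) or without the filter on dim probes (0.0828). Its call was lost without either wild type sample (adjusted p 0.132 and 0.0734), without the hair loss sample of Mutant097 (0.159), without the second normal sample of Mutant113 (0.0526) and with the slide row as a block (0.0577), within a range over all alternatives of 0.0235 to 0.232. Pf4, a chemokine also made by resident macrophages, differed by -0.92 in mutant normal skin (adjusted p 0.226, and 0.0381 with the slide row as a block, in a range of 0.0381 to 0.751), Cbr2, a carbonyl reductase, by -0.67 (adjusted p 0.223), and Mgl2, a C-type lectin, by -0.24 (adjusted p 0.589).

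Lysosomal genes, which many cell types share, had a smaller median difference from wild type. Of 12 tested, 8 were lower in mutant normal skin than in wild type (median -0.45, 0 passed), and 11 were higher in hair loss than in mutant normal skin (median 0.37, 0 passed). Ctsd and Ctsb, lysosomal proteases, differed from wild type by 0.33 and 0.15 in mutant normal skin (adjusted p 0.516 and 0.784). Between the title numbers 1 of the 12 passed: Ctsk, a collagen-degrading cathepsin that fibroblasts and osteoclasts also make, which was lower in normal skin of Mutant113 by a difference of -2.47 (SE 0.21, limma adjusted p 0.0344) and was picked out after its values were seen. Its call was lost when any 1 of the 4 normal mutant samples was left out (adjusted p 0.132 to 0.228), in a range over all alternatives of 0.00011 to 0.228. Of 13 tested genes of macrophage activation, 8 were lower in mutant normal skin (median -0.26, 0 passed). Among them Retnla, a marker of alternative activation, was at 6.68 and 7.14 in wild type skin and at 5.51, 6.21, 5.52 and 6.38 in mutant normal skin (2.01-fold lower, adjusted p 0.256). Arg1, an arginase of alternatively activated macrophages, differed by 0.35 (adjusted p 0.459).

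Further mast cell genes were read from lists in the same way. Of 10 further granule proteases, 4 were tested, 2 of them well above background on all 8 arrays. All 4 were higher in hair loss than in mutant normal skin (median 0.30, 0 passed). After each was centred on its mean over the samples, their average was highest in hair loss skin of Mutant113. The normal samples of the 2 title numbers lay close to each other. In Mutant097 it was -0.49 in hair loss skin against -0.22 and -0.08 in normal skin. In Mutant113 it was 1.03 against 0.13 and -0.06. Cma2, a chymase gene related to Cma1, was at 5.39 in hair loss skin of Mutant113, 4.40 and 4.28 in its normal skin, and 3.70 to 3.99 in the other samples. Tpsg1, a membrane-anchored tryptase, was at 2.23 in hair loss skin of Mutant113, 1.099 and 1.120 in its normal skin, and 0.22 to 0.86 elsewhere. Both have their 3 highest values in Mutant113, as the 4 members do. In normal skin alone, 24.1% of all probes tested lay higher in Mutant113 without overlap. The remaining proteases tested, Ctsg and Prss34, named after their values were seen, read otherwise in normal skin. Ctsg was at -2.40 and -2.46 in Mutant113 against -2.33 and -1.72 in Mutant097. Prss34, well above background on 3 arrays, was at -3.23 and -3.83 in Mutant113 and at -3.05 in 1 wild type sample. Both were highest in hair loss skin of Mutant113, at -1.10 and -3.04. Of 21 receptor and mediator genes of mast cells tested, 14 were higher in mutant normal skin than in wild type (median 0.21, 0 passed), and 13 were higher in normal skin of Mutant113 than in that of Mutant097 (median 0.20, 0 passed). Srgn, the core of the granule proteoglycan, was at 3.14 in hair loss skin of Mutant113 and at 1.89 to 2.86 in the others. Cd63, a granule membrane protein found in most cells, was lower in normal skin of Mutant113 than in that of Mutant097 by a difference of -0.68 (adjusted p 0.172).

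Kit, the receptor for stem cell factor on mast cells and on melanocytes, was the 1 gene of that list that passed, in hair loss skin against wild type (difference 1.89, SE 0.28, 3.71-fold higher, limma adjusted p 0.0287). It was at -0.80 and -0.65 in wild type skin, at 0.36, 0.02, 0.75 and 0.18 in mutant normal skin, and at 0.95 and 1.39 in hair loss skin. Kit separated the groups. Of all probes tested, 53.3% had no overlap between hair loss skin and wild type. The share was 28.3% for mutant normal skin against wild type and 12.4% for hair loss against mutant normal skin. Kit differed by 0.28 between the title numbers in normal skin (adjusted p 0.645). The call was lost without either wild type sample (adjusted p 0.155 and 0.0695) or either hair loss sample (0.108 and 0.0613), and without the second normal sample of Mutant113 (0.0502), within a range over all alternatives of 0.0169 to 0.222. Hair shaft keratins also differed between wild type and mutants: the summed level of 11 of them, as multiples of the 75th percentile, was 1.53 to 2.42 in wild type skin, 163 to 1052 in mutant normal skin and 647 to 1885 in hair loss skin. The wild type sum is mostly of values at background, with 3 of the 11 well above it on each wild type array. Within Mutant097 this sum was 1885 in hair loss skin against 173 and 163 in normal skin, where Kit read 0.95 against 0.36 and 0.02. Within Mutant113 it was 647 in hair loss skin against 1052 and 724 in normal skin, where Kit read 1.39 against 0.75 and 0.18. The part of the hair shaft keratins in the Kit difference was not tested.

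Markers of other cells in skin were read beside the macrophage and mast cell genes. Of 9 fibroblast genes, 8 were lower in mutant normal skin than in wild type (median -0.70), and Dpt, dermatopontin, passed at -1.63 (adjusted p 0.0403). The Dpt call was lost when any 1 of the 6 samples of these groups was left out (adjusted p 0.0678 to 0.151), within a range over all alternatives of 0.0313 to 0.645. Their summed level was 1345 to 1900 in wild type skin, 487 to 1320 in mutant normal skin and 659 to 890.5 in hair loss skin, with none at background on any array. Of 7 endothelial genes, 5 were lower (median -0.34; summed level 24.6 to 45.0 in wild type and 19.1 to 34.9 in mutant normal skin). The median was -0.77 over 9 neutrophil genes (summed level 112 to 192 in wild type, 128 to 217 in mutant normal skin, with 6 to 8 of the 9 well above background), -0.66 over 8 skeletal muscle genes, -0.0022 over 10 genes of Langerhans and dendritic cells, 0.19 over 8 T cell genes and 0.39 over 7 adipocyte genes. The neutrophil sum is mainly Csf3r, with a mean level of 7.34 against 1.76 for S100a9, the next. Of the 9 neutrophil genes, 6 were lower and 3 higher, by 0.26 (Csf3r), 0.97 (S100a8) and 0.20 (S100a9). All 11 hair shaft keratins were higher (median 6.31, 8 passed), where 0.575% of all probes tested passed higher. Only 3 of the 11 were well above background on each wild type array, so the others were set against wild type values at background. The 7 keratin and barrier genes of the epidermis, a check of the labelled tissue, were well above background on all arrays, with a median of 0.09. All 8 skeletal muscle genes were lower in hair loss than in mutant normal skin (median -1.79, 0 passed) and than in wild type (median -2.54). Of these 8, Mylpf, a myosin light chain, passed against wild type (difference -2.60, limma adjusted p 0.0466; picked out after its values were seen), and its call was lost without either hair loss (0.168 and 0.0854) or wild type sample (0.175 and 0.0883) and without the first normal sample of Mutant097 (0.0641) or of Mutant113 (0.0505), in a range of 0.0212 to 0.232. Their summed level was 183 in hair loss skin of Mutant113 against 1004 and 1134 in its normal skin, and 506 in hair loss skin of Mutant097 against 696 and 432. The part of these cell types in the macrophage and mast cell differences was not tested.

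The genes most like the macrophage members, by Pearson's r with their centred mean over the 8 samples among 12542 genes, were Cysltr1 (0.987), Dsel (0.985), Chp2 (0.982), Dpysl2 (0.980) and Rab3il1 (0.978). Cysltr1, a leukotriene receptor, was at 0.68 and 0.82 in wild type skin and at -0.06 to 0.39 in the mutants. The genes most like the mast cell members were Comp (0.975), Cma2 (0.963), Cebpa (0.963), Sik2 (0.963) and Mcpt-ps1 (0.962). Comp, a cartilage and tendon matrix protein, was at 1.58 in hair loss skin of Mutant113, 0.09 and -0.64 in its normal skin, and -1.37 to -0.92 in the others. Mcpt-ps1 is a mast cell protease pseudogene, and whether its probe or that of Cma2 also reads transcripts of the 4 members was not tested. These r are the highest of all genes compared and are given as a description.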

How the data were processed

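RNA of 8 mouse skin samples was measured on 8 single-colour Agilent arrays of 1 slide, read in 1 scan. Per the file headers, Feature Extraction 11.5.1.1 gave each spot a processed intensity, corrected for background. The deposited matrix holds log2 values, which lay within 0.01 of 1 shift per array from the log2 of that intensity for all 55603 probes. Outlier and non-uniform spots (118 to 210 per array) were left out, and 0 were saturated. Values are log2 intensity minus the 75th percentile of the array (83.1 to 211), and 25424 to 30205 probes per array were well above background. The number of arrays limits the precision.

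Probes well above background on at least 2 arrays (30417) were tested with limma 3.58.1 in R 4.3.3, two-sided, with Benjamini-Hochberg adjustment over all of them, called at adjusted p under 0.05. The 3 groups shared 1 model with 5 residual degrees of freedom. A model of 5 combinations of group and title number (3 residual degrees of freedom) gave the comparisons of numbers. Scripts were tested on simulated data. Gene symbols came from a RefSeq table.

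A gene is given by its brightest probe, with others where they disagree. From each further list at most the 4 brightest genes well above background on all arrays, and any called gene up to 4, could be named. The members and lists were chosen with earlier results of these data known. Alternatives covered background correction, normalization, the authors' matrix, dim-probe filters, probe averaging, each sample left out, samples in the fit, title number or slide row as a block, and 1 mean per group and number. The planned normexp correction on the mean signal used the median signal, the column present.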

Additional observations from a re-analysis of the deposited data

Results flagged for a closer look

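In mutant normal skin, 1 of 4 samples stood apart for 2 of the 36 genes examined in this way, and chance marks about 1 in 20 groups. Adgre1 was at 2.58 in the second normal sample of Mutant097 against 2.15 to 2.21 in the other 3, a gap of 0.870 of the range of the group, which is past Dixon's limit for 4 samples. Fcer1g, the signalling chain shared by Fc receptors of macrophages and mast cells, was at -1.14 in the same sample against 3.98 to 4.10 in the other 3, a gap of 0.976 of the range. Fcer1g has 1 probe, well above background on all 8 arrays, and its mean for mutant normal skin rests on that value: the difference from wild type was -2.21 (SE 1.41, limma adjusted p 0.459).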

How the results depend on the processing

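The groups hold 2 to 4 arrays, and in the wild type title number and genotype coincide. Over the results named in the text, 1121 values under an alternative kept direction and side of the threshold, 61 lost a call, 9 gained one and 32 turned direction.

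The count of members called in mutant normal skin against wild type was 0, and 2 with the slide row as a block. In hair loss against wild type it was 0, but 2 with the slide row as a block (Csf1r and Cd163), 1 with the filter on all 8 arrays, 1 with only the samples of both groups, and 0 to 1 when 1 sample was left out (1 without the first normal sample of Mutant113), Cd163 each time. With the title number as a replicate block, hair loss minus mutant normal skin called 0 members. The labels do not say that a number pairs samples, and 2 numbers are too few to check it.

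Of all probes, 211 were called in mutant normal skin against wild type and 432 in hair loss against wild type. With the slide row as a block these were 856 and 1332, without the dim-probe filter 128 and 183, with the filter on all 8 arrays 64 and 510, with only both groups 159 and 706, and with 1 mean per group and number 0 and 0. Without wild type replicate 1 they were 10 and 10, without replicate 2 0 and 0, without the normal samples of Mutant113 in turn 116 and 708, then 75 and 261, and without the hair loss sample of Mutant097 159 and 2. Between the title numbers 81 probes were called, with 465 under normexp and 146 under quantile normalization, and 6 to 99 when 1 sample was left out. For the difference in lesion effect, 0 became 287 under normexp, 25 without the second normal sample of Mutant097, 4 with the filter on all 8 arrays and 3 under quantile normalization. For hair loss minus mutant normal skin, 0 became 9 without the hair loss sample of Mutant113 and 11 without the first normal sample of Mutant113.

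Directions that turned belonged to values that were not called. For hair loss minus mutant normal skin, leaving out 1 sample gave Adgre1 -0.091 to 0.57, Csf1r -0.18 to 0.15, Mrc1 -0.056 to 0.19, Lyz2 -0.47 to 0.76, Cma1 -0.39 to 1.65, Mcpt4 -0.23 to 1.18, Cpa3 -0.59 to 1.67, Tpsb2 -0.029 to 1.22 and the second Csf1r probe -0.16 to 0.30. Against wild type, mutant normal skin gave Cma1 -0.14 to 0.37, Cpa3 -0.090 to 0.21, Lgals3 -0.12 to 0.18 and Ctsb -0.0039 to 0.22, and hair loss gave Cma1 -0.27 to 1.76 and Cpa3 -0.52 to 1.74. Between the title numbers it gave Adgre1 -0.40 to 0.030, Lyz2 -0.39 to 0.044, Mitf -0.19 to 0.15 and Kit -0.0037 to 0.57. Further, in hair loss minus mutant normal skin Csf1r came to 0.00062 with the mean of all probes, and with the slide row as a block Mrc1 came to -0.20 and the second Csf1r probe to -0.0072. Lgals3 in mutant normal skin against wild type was 0.03, and -0.088 under quantile normalization and -0.086 with the slide row as a block. Mitf between the title numbers was -0.02, with 0.013 under normexp and 0.047 under quantile normalization. The cause of these changes was not tested.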

Other observations

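Among the mast cell receptors, Fcer1a and Gata2 were picked out after their values were seen. Gata2, a transcription factor of mast cells, was at 0.25 in hair loss skin of Mutant113, at -0.61 and -0.53 in its normal skin, and at -1.37 to -1.12 in the other 5 samples. Fcer1a, the alpha chain of the high-affinity IgE receptor, was well above background on 5 of the 8 arrays, and read 0.57 in hair loss skin of Mutant113 and -1.05 and -1.83 in its normal skin. It read -1.73 in hair loss skin of Mutant097, -3.19 and -3.70 in its normal skin, and -5.08 and -4.64 in the wild type. It was well above background in every sample of Mutant113, so its readings at background are among those of Mutant097 and the wild type. Others of the same list, also picked out after their values were seen, read otherwise: Ltc4s, the leukotriene C4 synthase, had its lowest value, 1.32, in hair loss skin of Mutant113 and read 1.64 to 2.55 elsewhere, and Siglece, a sialic acid receptor, was highest, at 2.67, in hair loss skin of Mutant097.

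Growth factors of the macrophage receptor Csf1r, also picked out after their values were seen, differed from one another. Csf1 was at 2.81 and 2.70 in wild type skin and at 1.60 to 2.32 in the mutants (mutant normal skin minus wild type -0.73, limma adjusted p 0.192). Il34 was at 3.08 and 3.03 in wild type skin and at 2.51 to 3.46 in the mutants (0.14, adjusted p 0.794). C1qa, a complement chain made by macrophages, was at 3.52 and 3.89 in wild type skin and at 2.21 to 2.86 in the mutants (-1.24, SE 0.21, adjusted p 0.0509).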
